A study of Homo sapiens with 6 samples.

Results

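Wnt ligands, Frizzled receptors and their feedback genes were measured in SAS cells, an established line from an oral squamous cell carcinoma, by 100 probe sets for 45 genes, of 19775 genes and 54675 probe sets on the array. Members were chosen by symbol, among probe sets that the platform annotation gives a single gene symbol: every WNT and FZD gene, the co-receptors LRP5 and LRP6, the alternative receptors ROR1 and ROR2, the R-spondin receptors LGR4 and LGR5, the secreted inhibitors DKK1, DKK3 and SFRP1, the ligases RNF43 and ZNRF3, the scaffolds AXIN1 and AXIN2, the inhibitors NKD1 and NKD2, the factors LEF1, TCF7L1 and TCF7L2, and CTNNB1. FZD8 and WNT3 lay on probe sets shared with other symbols and, like TCF7, were not analysed here. All cells carried an siRNA, grew for 2 days after transfection and were then kept in serum-free medium for 48 h. Untreated arrays below are those that received DMSO: 2 with a control siRNA (siCtrl) and 2 with an siRNA against CYLD (siCYLD). The remaining arrays were 1 of siCtrl cells and 1 of siCYLD cells given an ALK5 inhibitor, a compound the labels do not name. CYLD is a deubiquitinase, and ALK5 is the kinase receptor of type I through which TGF-β signals.

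Wnt ligands are secreted lipid-modified proteins that bind Frizzled receptors together with LRP5 or LRP6, which stops the AXIN scaffold from sending β-catenin (CTNNB1) to destruction and lets it act with TCF/LEF factors in the nucleus. Several products of the pathway restrain it: DKK1 blocks the LRP co-receptors, the membrane ligases RNF43 and ZNRF3 remove Frizzled receptors from the surface unless R-spondins engage LGR4 or LGR5, and AXIN2, NKD1 and NKD2 act inside the cell. CYLD is known to remove ubiquitin chains from Dishevelled, the protein that relays the Frizzled signal.

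The groups follow the sample titles. For 2 of the 6 arrays, siCYLD replicate 1 and siCtrl replicate 2, the source name gives the other siRNA. CYLD itself was lower in both siCYLD arrays: its most affected probe set read 485 and 550 in the siCtrl arrays, 77.2 and 125 in the siCYLD arrays, 421 with siCtrl and inhibitor and 71.1 with siCYLD and inhibitor. All 4 of the 7 CYLD probe sets that passed the filter on dim signals were lower with the knockdown and kept 19.1% to 59.5% of their siCtrl signal. The duplicates correlated over all 54675 probe sets at 0.976 (siCtrl) and 0.9755 (siCYLD), as a description. The labels do not say that duplicates came from separate cultures, so the p-values below reflect how far these particular arrays scatter, and that scatter may be technical. They name no other CYLD siRNA and no rescue. The ratio of 3' to 5' signal for ACTB, a sign of RNA integrity and labelling, was 3.21 to 3.67 in the siCtrl arrays and 2.26 to 2.48 in the siCYLD arrays, so it moved with the siRNA; for GAPDH it was 1.79 to 2.14 with overlapping groups. The part of this difference in the knockdown results was not tested.

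Squamous epithelial markers were present: all 5 that could be measured passed the filter, with CDH1 at 11740 to 15160 and SFN at 16440 to 20610, and the summed list at 33900 to 46490. KRT14 was dim, at 62.27 to 147.7, and both untreated siCtrl arrays (76.23 and 62.27) read below the filter's limit of 79.3. DSG3 read 487.8 to 1261. KRT5 read 900.5 to 1245 in the untreated arrays, 12530 with siCtrl and inhibitor and 5595 with siCYLD and inhibitor. Of the fibroblast list 4 of 6 genes passed the filter and its summed signal was 697.4 to 894, with COL1A1 at 283.7 to 398.6 and PDGFRB at 228.3 to 306.8 above it on every array, and COL3A1 at 10.78 to 23.47. Of the leukocyte list 2 of 4 passed, with a sum of 247.4 to 379.7 and PTPRC, its defining marker, at 4.16 to 42.3; the 2 that passed, CD79A and CD3E, read 109.6 to 205.5 and 55.2 to 112.8. The endothelial list had 3 of 5 above the filter and summed to 266.1 to 381.6 in the untreated arrays against 975.9 and 862.3 with the inhibitor; CDH5 read 586.8 and 461.8 there and 5.83 to 63 untreated. VWF read 168.7 and 168.6 there and 25 to 71.4 untreated, PECAM1 was at 187.6 to 216.3 on every array, and KDR and CLDN5 were at or below 25.5 on every array. The part of these signals in the inhibitor results was not tested. In RNA from whole cultures, fewer cells of a type and less RNA per cell cannot be told apart.

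Of the 45 genes, 33 had a probe set above the filter, which asked that the mean of at least 1 of the 4 groups exceed a signal of 79.3, the median of all values. The 33 comprised 26 genes above it in all 4 groups and 7 above it in some groups only (WNT4, WNT8A, WNT9A, WNT16, FZD4, ROR1 and SFRP1), which had to differ between groups to pass in this way. The 12 genes below it were AXIN2, FZD9, LGR5, NKD1, ROR2, WNT1, WNT2, WNT5A, WNT8B, WNT9B, WNT10B and WNT11. AXIN2, a scaffold widely used as a readout of β-catenin activity, read 5.62 to 58.6 over its 4 probe sets and 6 arrays. ROR2 reached 94.6 in a single siCYLD array but had no group mean above the limit, and WNT5A, a ligand of the β-catenin-independent branch, read 1.02 to 32.3. For these genes the arrays did not resolve a level, and no difference was tested.

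Without inhibitor, 10 of the 33 tested members differed between siCYLD and siCtrl cells, and the change ran in both directions. Signals of the ligands WNT9A, WNT7B and WNT10A, the receptor FZD10 and the inhibitor NKD2 were higher; those of DKK1, DKK3, FZD1, FZD2 and RNF43 were lower. Among the called members the largest differences were those of WNT9A and FZD10, at 340.3% and 259% of the mean siCtrl signal, and of DKK1 and FZD2, at 40.9% and 52.5% of it. The 10 calls were 30.3% of the tested members, where 21.3% of all 12935 genes were called (limma, Benjamini-Hochberg adjusted p under 0.05). WNT9A is among the members that passed the filter in some groups only. Of the 26 members above it in all 4 groups, 4 were called higher and 5 lower (34.6%). By direction, 5 members were higher, with 9.49% of all genes called higher, and 5 were lower, with 11.8% of all genes called lower; whether the members' share differs from that of all genes was not tested. The untreated groups did not overlap for 20 of the 33 members, and for 60.9% of all genes. Some of the lower calls did not hold without siCYLD replicate 1 or siCtrl replicate 2, as given by gene below. Fewer genes were also called among all genes tested in these settings. The median difference of the tested members was 0.07 on the log2 scale against -0.04 over all genes. All differences below are of log2(signal + 16.06), which understates the change of dim genes, and are given ± the standard error from 2 against 2 arrays for the knockdown.

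**Figure D1:**
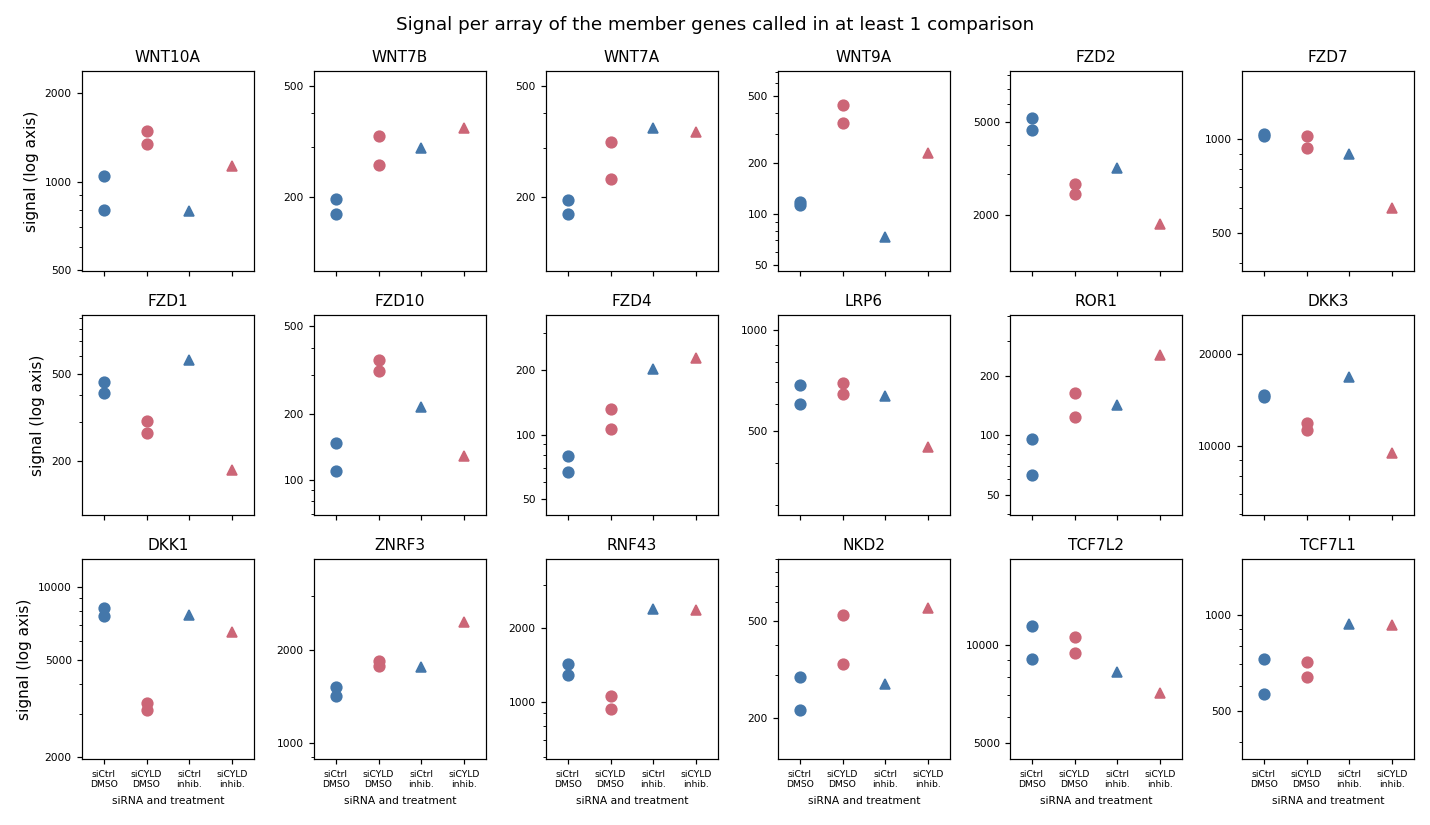
Signal (log axis) of the 18 member genes called in at least 1 of the 5 tested contrasts, 1 panel per gene and 1 point per array; blue is siCtrl, red is siCYLD, circles are DMSO and triangles the ALK5 inhibitor. DKK1 drops from 7590 and 8197 to 3126 and 3329 in the untreated siCYLD arrays and stands at 6551 in siCYLD cells with the inhibitor; RNF43 is at 2384 and 2370 in the inhibitor arrays, above every untreated array.

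Calls that held under every processing alternative run were those of DKK1, FZD2 and WNT9A with the knockdown, FZD2 and RNF43 with the inhibitor, and DKK1, FZD10 and RNF43 with the inhibitor in siCYLD cells. For these 5 genes the 250 bases before the annotated starts are shown where RefSeq (GRCh38.p14) had an entry, so that the genes the results turn on can be seen with their regulatory sequence. Entries were used for DKK1 (chr10:52314031-52314280, plus strand), RNF43 with 2 starts (chr17:58402722-58402971 and chr17:58417535-58417784, both minus strand) and WNT9A (chr1:227947933-227948182, minus strand). FZD2 and FZD10 are named only. Capitals mark matches on either strand to CTTTGA (the TCF/LEF core), TGANTCA (an AP-1 site) and CAGAC (a SMAD box); the motifs do not overlap one another in these sequences, and all sequences run 5′ to 3′ toward the start.
DKK1: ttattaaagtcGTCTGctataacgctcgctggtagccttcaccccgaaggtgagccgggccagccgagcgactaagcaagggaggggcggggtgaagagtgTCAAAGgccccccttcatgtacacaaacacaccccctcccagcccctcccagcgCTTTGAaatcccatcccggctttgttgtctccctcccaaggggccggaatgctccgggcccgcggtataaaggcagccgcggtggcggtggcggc
RNF43, start 1: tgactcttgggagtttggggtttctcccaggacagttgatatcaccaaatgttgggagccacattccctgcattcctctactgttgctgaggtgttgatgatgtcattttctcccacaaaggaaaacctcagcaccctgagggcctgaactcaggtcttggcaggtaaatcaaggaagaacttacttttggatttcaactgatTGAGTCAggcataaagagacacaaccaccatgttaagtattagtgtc
RNF43, start 2: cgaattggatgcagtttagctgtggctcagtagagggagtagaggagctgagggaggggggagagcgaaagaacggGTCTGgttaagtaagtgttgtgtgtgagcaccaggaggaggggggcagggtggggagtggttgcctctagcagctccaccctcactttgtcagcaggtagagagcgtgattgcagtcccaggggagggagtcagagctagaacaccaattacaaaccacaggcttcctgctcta
WNT9A: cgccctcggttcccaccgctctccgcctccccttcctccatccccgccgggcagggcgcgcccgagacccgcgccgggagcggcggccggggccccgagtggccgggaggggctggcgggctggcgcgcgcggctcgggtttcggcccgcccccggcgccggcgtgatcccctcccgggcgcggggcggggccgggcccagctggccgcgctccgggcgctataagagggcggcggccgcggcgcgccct

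The DKK1 window held the TCF/LEF core at 149 and 95 bases before the start and the SMAD box at 239 bases. The AP-1 site stood 47 bases before the first RNF43 start, the SMAD box 174 bases before the second, and the WNT9A window held none of these letters. Of 35114 promoter windows of this length, 11.2% held CTTTGA, 6.57% TGANTCA and 38% CAGAC. Of 36 windows of 30 member genes, 1 (2.78%), 1 (2.78%) and 11 (30.6%) did so. The motifs were picked after the sequences had been seen, and a match describes letters, not a bound factor.

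Among the ligands, 10 of 17 genes on the array were tested and 3 were higher in siCYLD cells, none lower; of all genes 9.49% were called higher and 11.8% lower. WNT9A, a ligand known from joint development, read 119 and 113 in the siCtrl arrays, 345 and 442 in the siCYLD arrays, 73.5 with siCtrl and inhibitor and 230 with siCYLD and inhibitor. Both siCYLD arrays stood above every siCtrl array, and within each siRNA the inhibitor array was the lowest. Its knockdown difference was 1.63 ± 0.22 (limma adjusted p = 0.000153), and the single inhibitor arrays of the siRNAs differed by 1.46, a value with no test. WNT9A was above the filter in 3 of the 4 groups.

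WNT10A, an epithelial ligand that mutations link to tooth and hair defects, read 1048 and 801 in siCtrl, 1344 and 1485 in siCYLD, 794 with siCtrl and inhibitor and 1133 with siCYLD and inhibitor. The untreated groups did not overlap, and siCtrl replicate 2 was the lower of its pair. The difference was 0.62 ± 0.14 (adjusted p = 0.00707); without that array it was 0.43, and adjusted p over 14 alternatives ran from 1.63e-05 to 0.0921. WNT7B, a ligand of epithelia, read 173 and 195 in siCtrl against 259 and 329 in siCYLD, with 299 and 353 in the siCtrl and siCYLD inhibitor arrays. The higher call, 0.62 ± 0.19 (adjusted p = 0.0332), rested on 1 of its probe sets: the other kept one differed by -0.56 (adjusted p = 0.39 over probe sets), reading 59.9 and 226 in the siCYLD arrays. Used in its place, that probe set turned the WNT7B difference to -0.56, and without siCtrl replicate 1 or siCYLD replicate 2 the call was lost, with differences of 0.46 to 0.54; adjusted p over 15 alternatives ran from 0.0117 to 0.95.

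The remaining tested ligands gave no knockdown call. WNT7A, the close relative of WNT7B, read 195 and 174 in siCtrl against 232 and 314 in siCYLD, without overlap, and its difference of 0.51 ± 0.20 missed the threshold (adjusted p = 0.0818). WNT2B, WNT5B, WNT6 and WNT8A differed by 0.05, 0.52, 0.15 and 0.57, WNT16 by -0.56. WNT4 differed by 1.38 ± 0.55 (adjusted p = 0.093), with siCtrl arrays at 9.21 and 76.6 and siCYLD arrays at 119 and 101. WNT4, WNT8A and WNT16 each passed the filter in 1 group only.

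Of the 8 tested Frizzled receptors, 1 was higher and 2 were lower with the knockdown, where 9.49% of all genes were higher and 11.8% lower. FZD2 read 5218 and 4639 in siCtrl, 2455 and 2720 in siCYLD, 3183 with siCtrl and inhibitor and 1828 with siCYLD and inhibitor. Each siCYLD array lay below its siCtrl counterpart of the same treatment, and each inhibitor array below the untreated arrays of its siRNA. The knockdown difference was -0.92 ± 0.11 (adjusted p = 3.91e-05), and FZD2's other kept probe set gave -0.37 (adjusted p = 0.0953 over probe sets). FZD10 read 110 and 146 in siCtrl, 312 and 353 in siCYLD, 215 with siCtrl and inhibitor and 128 with siCYLD and inhibitor. The untreated siCYLD arrays were the highest of the 6, and siCYLD with inhibitor fell within the untreated siCtrl range. Its difference was 1.28 ± 0.22 (adjusted p = 0.001). An additive model, which averages the untreated and inhibitor comparisons, gave 0.63 (adjusted p = 0.204) or, without the 2 arrays of conflicting labels, 0.43 (0.556), in a range over all 15 alternatives from 1.33e-07 to 0.556.

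FZD1 read 409 and 459 in siCtrl against 268 and 304 in siCYLD, 579 with siCtrl and inhibitor and 181 with siCYLD and inhibitor. The inhibitor arrays were the highest and the lowest of the 6 on this probe set, but not on FZD1's other kept probe set. The knockdown difference was -0.58 ± 0.16 (adjusted p = 0.024), and without siCYLD replicate 1 or siCtrl replicate 2 it was -0.50 to -0.49 and lost its call, with adjusted p over all alternatives from 0.00573 to 0.127. FZD3, FZD5, FZD6 and FZD7 differed by -0.17, -0.15, -0.05 and -0.07. FZD6, a receptor of epithelial planar polarity, had a 95% interval of -0.25 to 0.15 and read 5736 and 5418 in siCtrl, 5595 and 5179 in siCYLD, 5052 with siCtrl and inhibitor and 4870 with siCYLD and inhibitor. FZD4 differed by 0.59 ± 0.26 (adjusted p = 0.134).

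The co-receptors gave no knockdown call. LRP5 read 1312 and 1281 in siCtrl, 1323 and 1328 in siCYLD, 1414 with siCtrl and inhibitor and 1222 with siCYLD and inhibitor, with a 95% interval of the knockdown difference from -0.21 to 0.27. LRP6 differed by 0.06 ± 0.14 on the probe set that represents it, and its other kept probe sets by -0.655 and -0.05. The former (limma adjusted p = 0.203 over probe sets) read 168 and 139 in siCtrl against 97.7 and 85.2 in siCYLD. The alternative receptor ROR1, which binds WNT5A-class ligands, differed by 0.76 ± 0.28 (adjusted p = 0.0716) without overlap, at 62.8 and 95.6 against 164 and 123; its other kept probe set went the opposite way, by -0.36. The R-spondin receptor LGR4 read 586 and 580 in siCtrl, 377 and 476 in siCYLD, 666 with siCtrl and inhibitor and 363 with siCYLD and inhibitor. Both treatments showed lower signals with siCYLD, and the difference of -0.45 ± 0.15 narrowly missed the threshold (adjusted p = 0.054).

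Of the 3 secreted inhibitors tested, DKK1 and DKK3 were lower with the knockdown and SFRP1 was not called (0.45 ± 0.41). DKK1, the LRP5/6 antagonist, read 7590 and 8197 in siCtrl, 3126 and 3329 in siCYLD, 7724 with siCtrl and inhibitor and 6551 with siCYLD and inhibitor. The untreated siCYLD arrays stood far below all others, and siCYLD with inhibitor lay between them and the siCtrl arrays. The knockdown difference was -1.29 ± 0.09 (adjusted p = 8.36e-07). The additive model without the 2 arrays of conflicting labels, which averages in the inhibitor arrays, gave -0.71 (adjusted p = 0.0243), the largest adjusted p over 15 alternatives.

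DKK3, a secreted member of the same family that does not act on LRP5/6 in the manner of DKK1, read 14623 and 14492 in siCtrl, 11279 and 11935 in siCYLD, 16735 with siCtrl and inhibitor and 9522 with siCYLD and inhibitor. No siCYLD array reached a siCtrl array. The difference was -0.33 ± 0.08 (adjusted p = 0.0118), and all 4 kept probe sets of DKK3 were lower, with differences of -0.33, -0.41, -0.51 and -0.60. The call was lost without siCYLD replicate 1 (-0.29), and adjusted p over the alternatives ran from 0.000436 to 0.13.

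**Figure D2:**
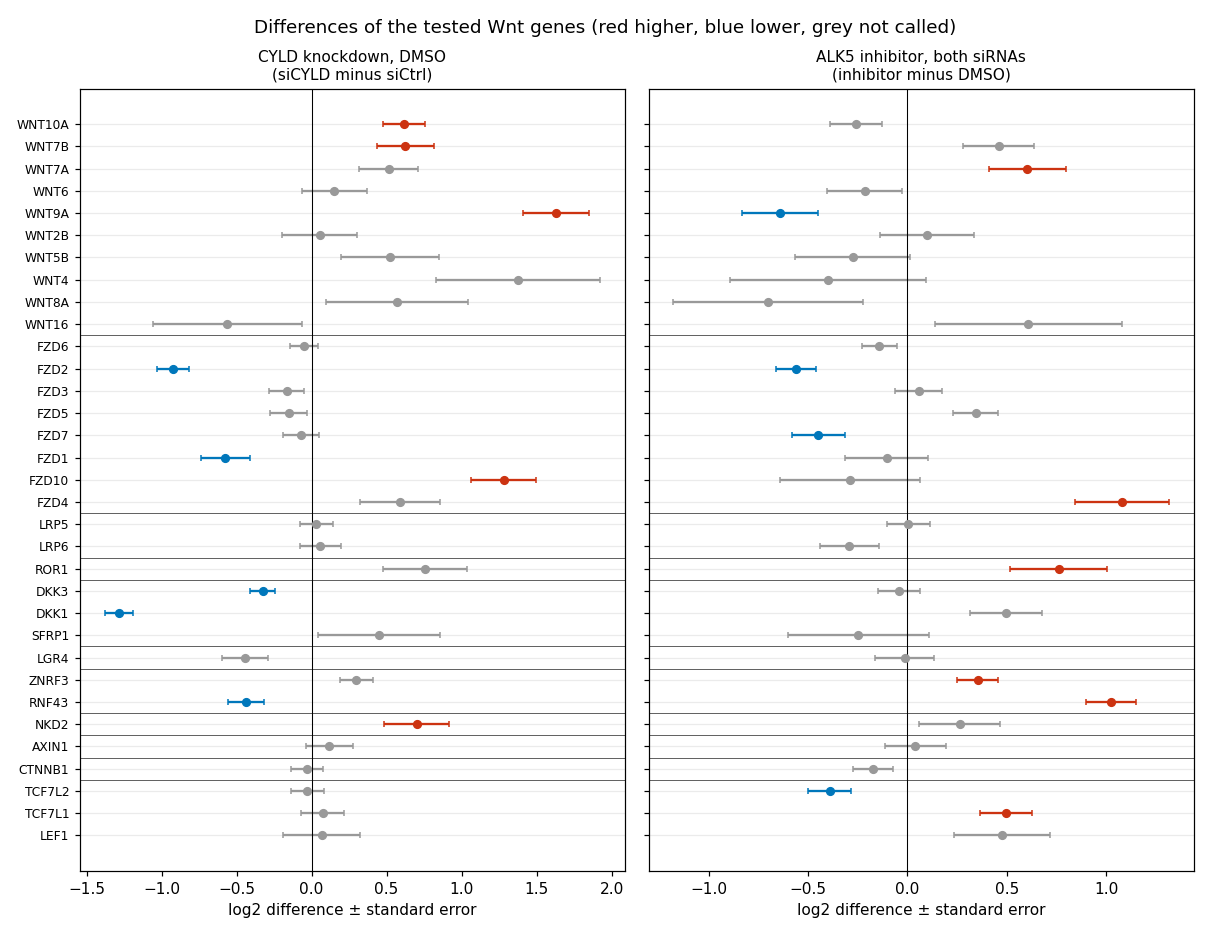
Log2 difference ± standard error of the 33 tested member genes, for the CYLD knockdown without inhibitor and for the ALK5 inhibitor across both siRNAs; red points were called higher, blue points lower and grey points not called. WNT9A stands at 1.63 and DKK1 at -1.29 for the knockdown, and FZD4 at 1.08 and RNF43 at 1.02 for the inhibitor.

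Of the receptor-clearing ligases, RNF43 was lower with the knockdown and ZNRF3 was not called. RNF43 read 1281 and 1428 in siCtrl, 935 and 1059 in siCYLD, 2384 with siCtrl and inhibitor and 2370 with siCYLD and inhibitor. Untreated siCYLD arrays were lowest, and the inhibitor arrays of the siRNAs were nearly equal (-0.01 between them, no test). The knockdown difference was -0.44 ± 0.12 (adjusted p = 0.0187); without siCYLD replicate 1 or siCtrl replicate 2 it was -0.36 to -0.35 and not called, the additive model gave -0.29, and without the 2 arrays of conflicting labels that model gave -0.14, with adjusted p over the alternatives from 0.00366 to 0.71. ZNRF3, its paralog, read 1519 and 1419 in siCtrl against 1778 and 1841 in siCYLD without overlap, and its difference of 0.30 ± 0.11 missed the threshold (adjusted p = 0.0658).

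Inside the cell, NKD2, which binds Dishevelled, was higher with the knockdown. It read 296 and 216 in siCtrl, 532 and 334 in siCYLD, 276 with siCtrl and inhibitor and 566 with siCYLD and inhibitor. Both untreated siCYLD arrays stood above the siCtrl arrays, but they were far apart. The difference was 0.70 ± 0.22 (adjusted p = 0.0367); it was 0.38 without siCYLD replicate 1 and 0.49 without siCtrl replicate 2, both uncalled, with adjusted p over 15 alternatives from 6.82e-05 to 0.268. The scaffold AXIN1 differed by 0.12 ± 0.16, at 1361 and 1480 in siCtrl, 1264 and 1876 in siCYLD, 1624 with siCtrl and inhibitor and 1424 with siCYLD and inhibitor.

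β-catenin and its DNA-binding partners gave no knockdown call. CTNNB1 read 3825 and 4600 in siCtrl against 4273 and 3943 in siCYLD, with 3670 and 3685 in the inhibitor arrays. The untreated groups overlapped, and the 95% interval of the difference was -0.27 to 0.20. That is the probe set that represents CTNNB1, and its other kept probe sets differed by 0.48 and 0.065. The former (limma adjusted p = 0.212 over probe sets) read 113 and 108 in siCtrl against 167 and 154 in siCYLD. TCF7L2, TCF7L1 and LEF1 differed by -0.03, 0.07 and 0.07, with intervals of -0.27 to 0.21, -0.24 to 0.39 and -0.49 to 0.62. These are mRNA signals; β-catenin protein and its location were not measured on these arrays.

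The ALK5 inhibitor was compared with DMSO across both siRNAs, in a model with the siRNA as a term, so that each difference averages 1 inhibitor array against 2 untreated arrays within each siRNA. Members again moved in both directions: FZD4, RNF43, ROR1, WNT7A, TCF7L1 and ZNRF3 were higher, and WNT9A, FZD2, FZD7 and TCF7L2 were lower. The largest rises among called members were FZD4 at 2.11-fold and RNF43 at 2.03-fold. These 10 were 30.3% of the 33 tested members, where 20% of all genes were called. Of all genes, 11.2% were called higher and 8.82% lower. FZD4, ROR1 and WNT9A are among the members that passed the filter in some groups only. Of the 26 members above it in all 4 groups, 4 were called higher and 3 lower (26.9%). Leaving out 1 array at a time gave 2 to 4 higher and 1 to 5 lower calls among members; there were 2 higher without siCYLD replicate 1 and 3 without siCtrl replicate 2 or either inhibitor array, and 1 lower without siCtrl replicate 1, either untreated siCYLD array or siCYLD with inhibitor and 2 without siCtrl replicate 2. The same omissions gave 1232 to 2888 calls over all genes, with 1668 without siCtrl replicate 1, 1547 and 1706 without siCYLD replicates 1 and 2, and 1232 without siCYLD with inhibitor. The members' median difference was -0.01, and that over all genes 0.01.

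FZD4, a receptor best known from retinal vessel growth, read 66.9 and 79.6 in siCtrl, 132 and 106 in siCYLD, 203 with siCtrl and inhibitor and 228 with siCYLD and inhibitor. Both inhibitor arrays were above all 4 untreated arrays. The difference was 1.08 ± 0.24 (adjusted p = 0.0102), and without the siCtrl inhibitor array it was 0.86 and not called, with adjusted p over 15 alternatives from 0.00769 to 0.0895. FZD4 was above the filter in 3 groups. The summed endothelial list, given above, was also higher in both inhibitor arrays, through CDH5 and VWF. PECAM1, KDR and CLDN5 did not exceed their untreated signals there. The part of this list in the FZD4 result was not tested. RNF43 rose by 1.02 ± 0.13 (adjusted p = 0.000486), and its inhibitor arrays, 2384 and 2370, stood above all untreated arrays, which reached 1428. FZD2 fell by 0.56 on the log2 scale (SE 0.10, adjusted p = 0.00389); its other kept probe set differed by -0.17 (adjusted p = 0.406 over probe sets), and the mean of both gave -0.37, still called, with adjusted p over 15 alternatives from 0.00347 to 0.0414.

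ZNRF3 read 1762 with siCtrl and inhibitor and 2473 with siCYLD and inhibitor, against 1519 and 1419, and 1778 and 1841, in the untreated siCtrl and siCYLD arrays. Only siCYLD with inhibitor stood clear of all untreated arrays. The difference was 0.35 ± 0.10 (adjusted p = 0.0348) and was lost without any of 4 arrays (both siCYLD untreated arrays, siCtrl replicate 2 and siCYLD with inhibitor), at 0.26 to 0.35, with adjusted p over the alternatives from 0.0273 to 0.266. TCF7L1, a TCF factor that often represses, read 725 and 564 in siCtrl, 640 and 709 in siCYLD, and 934 and 930 with inhibitor in siCtrl and siCYLD cells. Both inhibitor arrays lay above all others. Its difference of 0.50 ± 0.13 (adjusted p = 0.0245) was lost without any of siCYLD replicate 1, siCtrl replicate 2 or either inhibitor array, at 0.41 to 0.54, and without the 2 arrays of conflicting labels (0.37), with adjusted p from 0.0228 to 0.214. TCF7L2 read 11437 and 9072 in siCtrl, 9436 and 10544 in siCYLD, 8244 with siCtrl and inhibitor and 7148 with siCYLD and inhibitor. Both inhibitor arrays were below the untreated ones. It fell by 0.39 on the log2 scale (SE 0.11, adjusted p = 0.027), and its 7 kept probe sets ranged from -0.50 to -0.06. That call was lost without siCtrl replicate 1, either siCYLD untreated array or siCYLD with inhibitor (-0.41 to -0.31), with adjusted p from 0.0128 to 0.182.

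The remaining inhibitor calls rested on few arrays. WNT7A read 353 with siCtrl and inhibitor and 342 with siCYLD and inhibitor, above all untreated arrays, which reached 314. Its difference of 0.60 ± 0.19 (adjusted p = 0.0477) was 0.33 without the siCtrl inhibitor array and was also lost without siCtrl replicate 1, siCtrl replicate 2 or siCYLD replicate 1, with adjusted p from 0.0299 to 0.384. ROR1 read 142 and 254 in the siCtrl and siCYLD inhibitor arrays; its 0.76 ± 0.24 (adjusted p = 0.0484) was lost without any array except siCtrl replicate 2, at 0.65 to 0.84, with adjusted p from 0.0418 to 0.224. WNT9A fell by 0.64 (SE 0.19, adjusted p = 0.0376), a call lost without each of the 6 arrays in turn (-0.73 to -0.56), with adjusted p from 0.0263 to 0.233. FZD7 read 1026 and 1041 in siCtrl, 940 and 1028 in siCYLD, 898 with siCtrl and inhibitor and 600 with siCYLD and inhibitor. The lowest signal by far was that of siCYLD with inhibitor. FZD7's difference was -0.45 ± 0.13 (adjusted p = 0.0376), was -0.20 without siCYLD with inhibitor and -0.70 without siCtrl with inhibitor, and lost its call without any array except the latter, with adjusted p from 0.00502 to 0.447.

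The other tested members were not called with the inhibitor. FZD5 differed by 0.34 ± 0.11 (adjusted p = 0.0543), while its other kept probe set differed by -0.99. CTNNB1 differed by -0.17, with a 95% interval of -0.40 to 0.05, and LRP5 by 0.00, with -0.23 to 0.24. LRP6 differed by -0.29 ± 0.15 (adjusted p = 0.19) on its representative; another probe set of the same gene differed by -1.70 (adjusted p = 0.00337 over probe sets), reading 168, 139, 97.7 and 85.2 in the untreated siCtrl and siCYLD arrays and 29.8 and 21.3 with the inhibitor. The third kept LRP6 probe set differed by -0.10, so the probe sets of LRP6 disagreed in size.

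**Figure D3:**
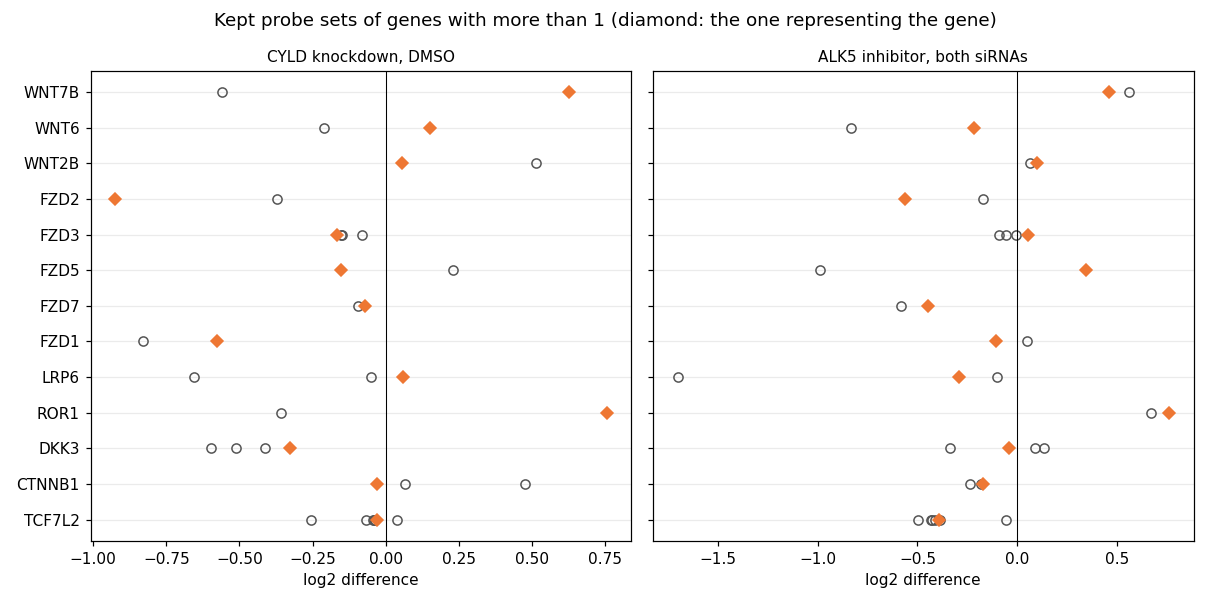
Log2 differences of every kept probe set of the 13 member genes that have more than 1, for the knockdown and for the inhibitor, with a diamond at the probe set that represents the gene. The 4 DKK3 probe sets lie at -0.60 to -0.33 for the knockdown, the 2 of WNT7B on opposite sides of 0, and LRP6 ranges from -1.70 to -0.10 for the inhibitor.

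Whether the inhibitor difference depended on the siRNA was tested as an interaction, the inhibitor difference in siCYLD cells minus that in siCtrl cells. It was called for DKK1 and FZD10, 2 of 33 members (6.06%), where 1.67% of all genes were called. Of all genes, 0.982% were higher, as DKK1 was, and 0.688% lower, as FZD10 was. An unadjusted p under 0.05 was reached by 6 of the 33 members and by 1767 of the 12935 genes. Each inhibitor group is 1 array, assumed to vary like the duplicates. DKK3 was not called on the probe set that represents it (-0.49). When every kept probe set was tested, another DKK3 probe set was called, at -0.85. It read 6387 with inhibitor beside 4192 and 4466 in siCtrl cells, and 2475 beside 2930 and 3129 in siCYLD cells. DKK1 stood at 7724 with inhibitor beside 7590 and 8197 without in siCtrl cells, a difference of -0.03 (95% interval -0.28 to 0.22). In siCYLD cells it stood at 6551 beside 3126 and 3329, a difference of 1.02 ± 0.11 (adjusted p = 4.53e-05). The interaction was 1.05 ± 0.16 (adjusted p = 0.00516). FZD10 went the opposite way: 215 with inhibitor beside 110 and 146 in siCtrl cells (0.69 ± 0.27, adjusted p = 0.13), and 128 beside 312 and 353 in siCYLD cells (-1.27 ± 0.27, adjusted p = 0.00458). Its interaction was -1.96 ± 0.38 (adjusted p = 0.0185). Both interactions were lost with no filter and with no intensity trend; adjusted p over 12 alternatives ran from 2.24e-05 to 0.214 for DKK1 and from 0.000662 to 0.179 for FZD10.

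The knockdown difference and the inhibitor difference in siCYLD cells share the 2 untreated siCYLD arrays, so their values stand side by side and no relation between them is drawn. For DKK1 they were -1.29 and 1.02, and for FZD10 1.28 and -1.27. The siRNAs' inhibitor arrays differed by -0.24 for DKK1 and -0.68 for FZD10, without a test. Other members that differed between siRNAs by most in the inhibitor arrays were FZD1 at -1.59 and WNT9A at 1.46. These are values of the probe sets that represent the genes. FZD1's interaction was -1.02 ± 0.28 and was not called (limma adjusted p = 0.11). The other kept FZD1 probe set read 88.2 with siCtrl and inhibitor and 98.1 with siCYLD and inhibitor. Its interaction went the opposite way, at 0.96, so the FZD1 probe sets disagreed here.

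**Figure D4:**
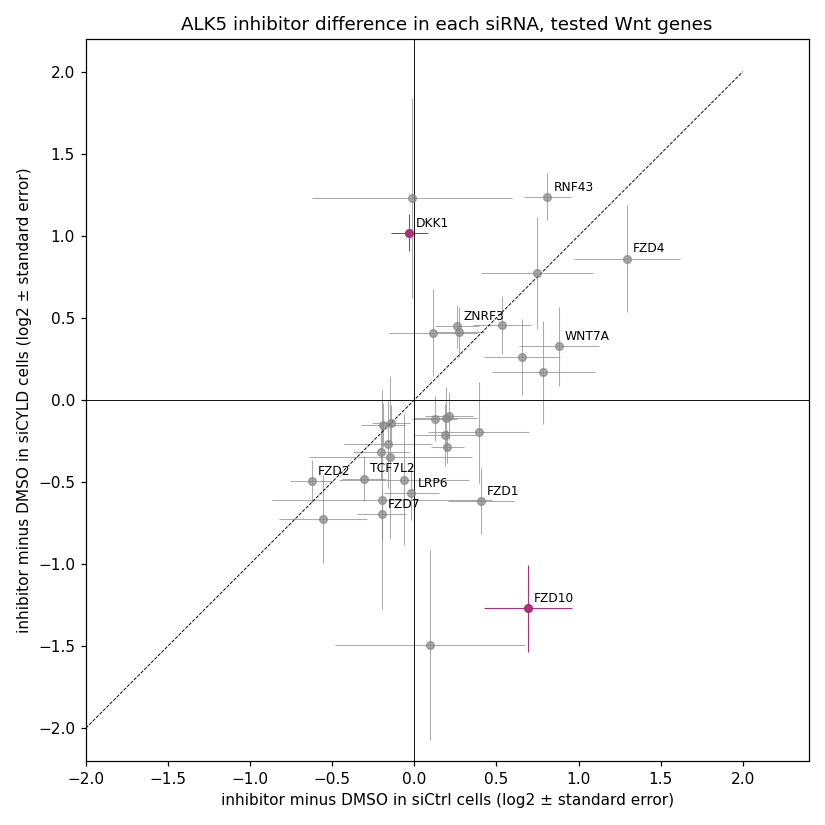
Log2 difference with the ALK5 inhibitor in siCtrl cells (horizontal axis) and in siCYLD cells (vertical axis) for the 33 tested members, with standard errors; the dashed line marks equal differences and purple marks the genes whose interaction was called. DKK1 lies at -0.03 and 1.02 and FZD10 at 0.69 and -1.27, on either side of the line, while RNF43 is at 0.81 and 1.24.

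Within siCtrl cells the inhibitor called 4 members (12.1% of those tested, where 9.36% of all genes were called): FZD4, RNF43 and WNT7A higher, where 5.02% of all genes were, and FZD2 lower, where 4.34% were. Of the 26 members above the filter in all 4 groups, 2 were called higher and 1 lower (11.5%). Without siCtrl replicate 2 another member was called lower, and more genes were called among all genes, in either direction. RNF43 rose by 0.81 ± 0.15 (adjusted p = 0.00401) and FZD2 fell by 0.63 (SE 0.13, adjusted p = 0.00958). With the mean of its kept probe sets FZD2 differed by -0.36 and was not called, with adjusted p over 12 alternatives from 0.000504 to 0.144. WNT7A rose by 0.88 ± 0.24 (adjusted p = 0.0373) and lost its call without either siCtrl duplicate (0.81 to 0.95), with adjusted p over the alternatives from 0.00527 to 0.151. FZD4 rose by 1.29 ± 0.32 (adjusted p = 0.0247) and lost its call without siCtrl replicate 1 (1.19), with adjusted p from 0.00442 to 0.106.

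Within siCYLD cells it called 9 members (27.3%, where 22.4% of all genes were called). DKK1, RNF43 and ZNRF3 were higher (12.2% of all genes), and 4 Frizzled receptors (FZD1, FZD2, FZD7 and FZD10), LRP6 and TCF7L2 were lower (10.2% of all genes). RNF43 rose by 1.24 ± 0.15 (adjusted p = 6.62e-05). FZD7 fell by 0.70 (SE 0.15, adjusted p = 0.00516), while in siCtrl cells it differed by -0.20 (adjusted p = 0.454); the interaction of FZD7, -0.50, was not called (adjusted p = 0.311). FZD2 and FZD1 fell by 0.50 and 0.61 (adjusted p = 0.0156 and 0.0432), and both lost the call without siCYLD replicate 2 (-0.42 and -0.53); adjusted p over the alternatives ran from 0.0064 to 0.12 for FZD2 and from 0.0304 to 0.914 for FZD1. With the mean of its kept probe sets FZD1 differed by -0.04, since its other kept probe set differed by 0.53. LRP6 fell by 0.57 (adjusted p = 0.0288) at 447 beside 693 and 645 without inhibitor, and was not called without siCYLD replicate 1 (-0.52), with adjusted p from 0.0201 to 0.0915. Another LRP6 probe set was lower in both siRNAs, at -1.88 in siCtrl and -1.52 in siCYLD cells (limma adjusted p = 0.0172 and 0.0226 over probe sets). The third kept one differed by -0.04 and -0.16. FZD5 was not called on its representative (0.41), while its other kept probe set differed by -1.775 (limma adjusted p = 0.00536 over probe sets). ZNRF3 rose by 0.45 (adjusted p = 0.0278) and was not called without either siCYLD duplicate (0.42 to 0.47), with adjusted p from 0.0158 to 0.111. TCF7L2 fell by 0.48 (adjusted p = 0.0224) and was not called with no filter or no intensity trend, with adjusted p from 0.00176 to 0.186. The 2 differences within siRNAs each share their untreated arrays with the knockdown difference.

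Other genes of the pathway were taken from lists of 119 genes by role, of which 112 were on the array and 82 were tested. With the knockdown 13 were higher and 9 lower (26.8%, against 21.3% of all genes), with a median of 0.12. Of the 20 tested β-catenin target genes 7 were higher and 1 was lower, and 12 were not called; these 40% stand against 21.3% of all genes, 9.49% of which were higher and 11.8% lower, and the difference between the shares was not tested. The lower one was BIRC5, the survival and mitosis gene survivin, at 699 and 618 in siCtrl, 217 and 183 in siCYLD, 848 with siCtrl and inhibitor and 916 with siCYLD and inhibitor (-1.64 ± 0.15, adjusted p = 5.76e-06). The higher ones included the transcription factors SOX4 (1.29), SOX9 (1.08) and FOSL1 (0.99) and the adhesion receptor CD44 (1.08), with adjusted p from 2.02e-06 to 1.22e-05. Genes of such a list also answer to other pathways, and AXIN2 was below the filter. SOX4 lost its call in the additive model (0.71) and BIRC5 in that model without the 2 arrays of conflicting labels (-0.87); adjusted p reached 0.315 and 0.0752 over their alternatives.

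Among the other inhibitors at the membrane, KREMEN1 and KREMEN2, receptors through which DKK1 acts on LRP6, were each higher with the knockdown by 0.78 (adjusted p = 0.00186 and 0.00916); KREMEN2 lost its call with no filter, at its largest adjusted p, 0.0515. WLS, the carrier that takes Wnt ligands to the cell surface, was lower in the untreated siCYLD arrays at 1191 and 1213 against 1614 and 1713 (-0.46 ± 0.11, adjusted p = 0.0106). Of the planar polarity and calcium branch, 1 of 17 was higher and 4 were lower (29.4%), among them PRICKLE1 (-1.08) and CAMK2D (-0.82), a polarity protein and a calcium-dependent kinase. Of the 17 tested genes of Dishevelled, the kinases and the destruction complex, 1 was higher and 1 lower (11.8%). Of 16 nuclear cofactors and repressors 1 was higher (TLE2, a corepressor, 0.89) and 2 were lower (18.8%). Over all genes 21.3% were called, so the shares of these lists lie on both sides of it, and no difference was tested. PRICKLE1, CAMK2D and TLE2 lost their calls with no intensity trend, as did WLS, where their adjusted p was largest (0.0537, 0.0521, 0.0717 and 0.0685).

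With the inhibitor, 8 of the 82 pathway genes were higher and 12 lower (24.4%, against 20% of all genes), with a median of -0.04. Among the called genes KREMEN2 rose most, from 124 and 149 in siCtrl and 233 and 257 in siCYLD to 373 and 713 with the inhibitor (1.42 ± 0.16, adjusted p = 0.000307). The β-catenin target list had 4 higher and 3 lower of 20: JAG1, a Notch ligand, rose by 1.09 (adjusted p = 0.000873), and ID2, an inhibitor of bHLH factors that TGF-β and BMP signals also regulate, fell by 1.36 (adjusted p = 0.00151). SOX7, a factor that can bind β-catenin, rose by 0.92 (adjusted p = 0.000141). BIRC5 rose by 1.24 (adjusted p = 0.0151): without the siCYLD inhibitor array it was 0.36, without the siCtrl inhibitor array 2.11, and adjusted p reached 0.269. NFATC1 and NFATC4, calcium-regulated transcription factors, fell by 0.73 and 0.68, and TRABD2A, a protease that inactivates Wnt ligands, rose by 0.67 (adjusted p = 0.0123, 0.021 and 0.0137). Each lost its call without the siCYLD inhibitor array, NFATC4 and TRABD2A also without siCtrl replicate 1 and NFATC4 without siCYLD replicate 2 (NFATC1 -0.66, NFATC4 -0.65 to -0.54, TRABD2A 0.45 to 0.64). With the mean of its kept probe sets NFATC1 differed by -0.15; the 3 genes reached an adjusted p of 0.689, 0.104 and 0.167 over their alternatives. The interaction was called for 2 of the 82, SOX4 (-1.74) and BIRC5 (1.75), which is 2.44% against 1.67% of all genes. BIRC5's call was lost with no filter, the mean of the kept probe sets and no intensity trend, and SOX4's with no intensity trend; adjusted p reached 0.152 for each.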

How the data were processed

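Affymetrix arrays of 6 samples were used: siCtrl (n = 2), siCYLD (n = 2) and 1 of each siRNA with ALK5 inhibitor, labelled from 2 µg of RNA. The deposited values were linear intensity, 1 signal per probe set, computed by MAS5 (version not given in the sources used here), per the submitters' processing notes. Each array's trimmed mean was 500.1; the number of arrays limits the precision. Of 54675 probe sets, 62 were controls, 41091 had 1 symbol, 1801 several and 11721 none.

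Differences are of log2(signal + 16.06), where 16.06 is the 20th percentile of all signals. Probe sets whose highest group mean exceeded 79.3 were kept (24537), and the kept probe set with the highest mean stood for a gene (12935 tested). limma 3.58.1 in R 4.3.3 (with the package data.table, version 1.17.8), with an intensity trend, fitted the 4 group means (knockdown, interaction, inhibitor within each siRNA; 2 residual and 10.9 prior degrees of freedom) or siRNA plus inhibitor (3 and 7.98). P-values were adjusted by Benjamini-Hochberg over all genes, threshold 0.05. With 1 inhibitor array a group, that array is assumed to vary like the duplicates. The knockdown contrast and the inhibitor term across siRNAs were tested on simulated data with planted differences. The interaction and the inhibitor contrasts within each siRNA were not. Motif searches used Python 3.11.15 and plots matplotlib 3.10.9.

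Named genes were CYLD, every tested member and members below the filter by range. The called pathway genes with the largest differences (up to 8 per contrast) were also named. Of the probe sets that disagree in sign with the one representing the gene, some are given and others are not. KREMEN1 and WLS were added after their values were seen. Members and lists were chosen with earlier results of these data known. Deviations of the untreated arrays of the same replicate number from their group means correlated at 0.045 over 12935 genes. That value describes little shared deviation, and it cannot say whether the arrays were handled as pairs. Alternatives were the offset (1 or 64), no filter, quantile normalization, other choices of probe set, no intensity trend, an additive model, a replicate block, leaving out each array, and leaving out the 2 arrays of conflicting labels.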

Additional observations from a re-analysis of the deposited data

Results flagged for a closer look

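The results below are those whose inhibitor difference was not the same in siCYLD as in siCtrl cells, by limma's interaction test. Among the members these were DKK1 (1.05, adjusted p = 0.00516) and FZD10 (-1.96, adjusted p = 0.0185). Among the other pathway genes they were BIRC5, at 1.75, and SOX4, at -1.74. DKK1 and BIRC5 were low in the untreated siCYLD arrays and higher in siCYLD cells with the inhibitor; FZD10 and SOX4 were high in the untreated siCYLD arrays and lower with the inhibitor. Each rests on 1 inhibitor array per siRNA. The interaction also uses the untreated arrays of the knockdown difference, with opposite signs, so such mirrored values are partly built in. All 4 calls were lost with no intensity trend, those of DKK1, FZD10 and BIRC5 also with no filter, and that of BIRC5 with the mean of the kept probe sets.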

How the results depend on the processing

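Of 35 member calls over the 5 contrasts, 8 held in every alternative run, 27 were lost in at least 1 and 1 turned: WNT7B with the knockdown, at -0.558 (adjusted p = 0.368) with _x_at and _s_at probe sets left out. Moderation without the intensity trend ended 24 of the 35 and no filter 16, while either other offset and quantile normalization ended 1 each. The causes were not tested.

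For the knockdown (5 members higher, 5 lower, 2757 of all genes), no filter gave 3 and 3 members, the mean of the kept probe sets or leaving out _x_at and _s_at probe sets 3 higher, and no intensity trend 2 and 2, with 1219 genes; the additive model without both arrays of conflicting labels gave 1 higher and 1052 genes. For the inhibitor across siRNAs (6, 4 and 2586), no filter gave 1 lower, no intensity trend 2 and 2 with 1087 genes, and omitting the arrays of conflicting labels 2 and 2 with 1325 genes.

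For the interaction (2 members, 216 genes), limma called 0 members with no filter (33 genes) and 0 members and 0 genes with no intensity trend, where unadjusted p was under 0.05 for 7 and 4 members and for 2016 and 1480 genes. The mean of the kept probe sets gave 95 genes and leaving out _x_at and _s_at probe sets 134. In siCtrl cells (3, 1 and 1211), no filter gave 1 higher and 478 genes, and no intensity trend 0 and 0 by limma and 35 genes. Without the trend, unadjusted p was under 0.05 for 8 and 2 members and for 2562 genes. With the mean of the kept probe sets 0 members were lower, and 822 genes were called. Unadjusted p was then under 0.05 for 5 lower members and for 2917 genes in either direction. Testing every probe set gave 3 lower and 1205 genes. In siCYLD cells (3, 6 and 2900), no filter gave 3 lower and 1819 genes, and no intensity trend 1 lower and 1055 genes.

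Leaving out 1 array at a time gave 2 to 6 members lower with the knockdown. With the inhibitor across siRNAs it gave 2 to 4 higher and 1 to 5 lower, with 1232 to 2888 genes; for the interaction 294 to 455 genes; and in siCtrl cells 1 to 2 lower. With the replicate number as a block on the 4 untreated arrays, all 10 knockdown calls held. That setting called 7 higher and 6 lower members and 3693 genes. Whether the replicate numbers pair the arrays is not settled. Signals near the filter limit what can be seen of the 12 members below it.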
